A study of Homo sapiens with 15 samples.

Results

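The 15 deposited peak lists of nuclease-accessible chromatin in K562, a human erythroleukemia cell line, held 118109 distinct autosomal regions once peaks overlapping by at least 1 bp were merged. Of these, 37968 had a peak in every list. The sites described here are the 4574 regions among them in which at least 1 single peak of 1 list reached 1000 bp, and they are called broad sites. They made up 12.05% of the regions with a peak in every list and 3.87% of all merged regions. The remaining 33394 regions with a peak in every list are called narrower sites. Peak width and presence chose the broad sites, so widths are given below as a description with no test. No group label entered the choice.

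All 5 groups were K562 cells stably transduced with lentivirus, in the presence of 4 µg/mL polybrene, and selected with 1 µg/mL puromycin from about 96 h after transduction. They carried either catalytically dead Cas9 (dCas9), a protein that a guide RNA (gRNA) leads to matching DNA and that does not cut it, or dCas9 fused to KRAB, a silencing domain that brings in histone methyltransferases. Plain dCas9 was combined with either of 2 gRNAs, Cr4 and Cr10, and so was dCas9-KRAB, while the fifth group had dCas9-KRAB and no gRNA. Each group had 3 libraries. Both gRNAs were directed at HS2, an erythroid enhancer of the beta-globin locus. One label field named HS2 as the target in the group without a gRNA too, and the groups follow the titles. Each group stands for 1 cell line, and an untransduced group was not analysed here. The labels describe transduction in triplicate but do not say that the numbered libraries were separate cultures, so p-values measure the spread between these libraries, which may be technical.

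DNase I cuts DNA where nucleosomes are displaced or loosened, and the cut ends pile up into peaks at promoters, enhancers and insulators. A single enhancer usually gives a short peak. Promoters in CpG islands, stretches of DNA in which the CG dinucleotide has escaped loss by methylation, often carry a wide nucleosome-poor stretch around the start of transcription, and many serve genes that are active in all cell types. No hg19 sequence was used here, so the bases of the broad sites themselves are not shown. Gene names below rest on recalled hg19 start positions that were not checked against an annotation.

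As examples of promoters at such sites, chosen with their values known, the 250 bases before the start of transcription are given for 4 genes whose recalled start lay in or within 2 kb of a broad site, from RefSeq on build GRCh38.p14, 5′ to 3′ on the gene's own strand, with every CG in capitals. For every gene here and below, the most upstream RefSeq start was taken. It was not matched to the hg19 site, so in a gene with several promoters it may be another one. ENO1 encodes the glycolytic enzyme enolase, EGR1 and JUND encode transcription factors of the growth response, and MIR17HG is the host transcript of a microRNA cluster that promotes proliferation.
ENO1: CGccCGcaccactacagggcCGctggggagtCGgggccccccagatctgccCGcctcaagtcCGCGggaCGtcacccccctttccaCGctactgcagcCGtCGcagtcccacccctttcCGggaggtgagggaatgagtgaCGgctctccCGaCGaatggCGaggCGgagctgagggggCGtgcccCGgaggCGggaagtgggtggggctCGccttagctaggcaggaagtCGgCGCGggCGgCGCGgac
EGR1: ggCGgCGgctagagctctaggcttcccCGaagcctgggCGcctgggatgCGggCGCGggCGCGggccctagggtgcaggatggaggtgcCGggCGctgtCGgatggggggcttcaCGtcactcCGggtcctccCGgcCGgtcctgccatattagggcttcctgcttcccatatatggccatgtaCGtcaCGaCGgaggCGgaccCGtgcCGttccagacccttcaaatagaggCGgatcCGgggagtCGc
JUND: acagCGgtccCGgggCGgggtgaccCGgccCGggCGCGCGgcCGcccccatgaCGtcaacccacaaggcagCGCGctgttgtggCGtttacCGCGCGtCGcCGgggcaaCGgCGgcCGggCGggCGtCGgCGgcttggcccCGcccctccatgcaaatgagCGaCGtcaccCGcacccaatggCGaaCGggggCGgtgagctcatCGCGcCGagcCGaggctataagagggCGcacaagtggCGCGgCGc
MIR17HG: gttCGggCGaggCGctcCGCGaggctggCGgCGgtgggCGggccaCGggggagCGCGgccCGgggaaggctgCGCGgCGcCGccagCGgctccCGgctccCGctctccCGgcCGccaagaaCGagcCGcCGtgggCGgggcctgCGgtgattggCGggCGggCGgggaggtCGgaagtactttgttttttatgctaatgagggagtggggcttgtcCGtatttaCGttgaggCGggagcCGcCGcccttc

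For comparison, the same stretch is given for TUBA1B, an alpha-tubulin gene, and RPL13A, a ribosomal protein gene, whose sites were narrower, with longest peaks of 532 bp and 647 bp.
TUBA1B: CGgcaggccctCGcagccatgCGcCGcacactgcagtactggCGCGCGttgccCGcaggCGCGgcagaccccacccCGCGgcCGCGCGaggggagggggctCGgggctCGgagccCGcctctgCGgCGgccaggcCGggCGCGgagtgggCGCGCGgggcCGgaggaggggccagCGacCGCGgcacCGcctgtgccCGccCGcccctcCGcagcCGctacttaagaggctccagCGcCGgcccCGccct
RPL13A: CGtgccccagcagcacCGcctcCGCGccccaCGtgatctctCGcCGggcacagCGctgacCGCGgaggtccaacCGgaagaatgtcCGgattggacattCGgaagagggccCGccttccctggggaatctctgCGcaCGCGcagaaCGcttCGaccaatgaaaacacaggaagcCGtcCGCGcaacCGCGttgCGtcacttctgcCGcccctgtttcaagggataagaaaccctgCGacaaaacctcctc

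CG dinucleotides numbered 27 in the ENO1 stretch, 25 in EGR1, 40 in JUND and 35 in MIR17HG, against 38 in TUBA1B and 27 in RPL13A. All 6 lay above the upper quartile of the 35116 RefSeq promoter stretches of that length, which was 23 CG, with a median of 11. The narrower pair lay within the range of the 4 broad sites. Other genes with a broad site had fewer CG in this stretch: the heat shock protein genes HSPA8 and HSP90AB1 had 22 and 18, and EPOR, the erythropoietin receptor gene, had 10. The letters GGGCGG, searched on both strands, occurred in ENO1 (1 match), JUND (5), MIR17HG (5), TUBA1B (3) and RPL13A (1), overlapping matches included, and not in EGR1, while 42.6% of all promoter stretches held them. The letters CCAAT, searched likewise, occurred once each in JUND and MIR17HG and 2 times in RPL13A, against 32.0% of all stretches with a match. Matches of the 2 motifs on opposite strands can share letters, and a match is a description of the sequence only.

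A broad site was seldom broad in every list. Its longest peak had a median of 1162 bp, with quartiles of 1071 and 1300 bp and a maximum of 2395 bp, while the shortest of its 15 per-list longest peaks had a median of 564 bp. For narrower sites these medians were 487 bp and 281 bp. The longest peak of a broad site was a median of 2.12 times as long as its shortest, with quartiles of 1.68 and 2.72 and a maximum of 7.16. In 1066 broad sites (23.3%) only 1 list reached 1000 bp, in 632 it was 2 lists, in 1153 (25.2%) at least 8 lists, and in 123 (2.69%) all 15.

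The sites that were broad in all 15 lists were also taller. From sites broad in 1 list to sites broad in 15, the median summit pileup, which is the number of fragments stacked at the peak's summit, went from 135 to 169 and the median local background from 10.97 to 17.2 fragments. The median rank by fold over background, as a percentile of the list, went the other way, from 86.0 to 74.2. These measures come from the same peaks that the rule used and carry no test.

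**Figure D1:**
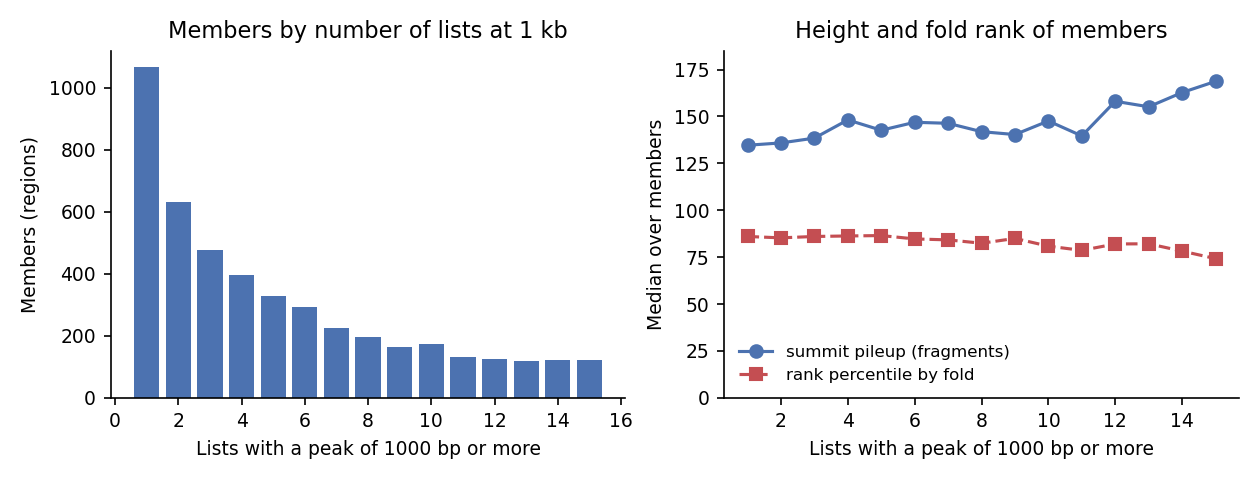
Left, number of broad sites (y axis) by the number of lists in which a single peak reached 1000 bp (x axis). Right, the median over those sites of the mean summit pileup in fragments (circles) and of the rank percentile by fold (squares). The bars fall from 1066 sites in 1 list to 123 in 15 lists, and the pileup and the fold rank part ways at the right-hand end.

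The threshold cut through a continuum of widths. Just inside it, the regions chr1:2125895-2126914 and chr1:15735807-15736811 (build hg19) each had a longest peak of 1000 bp, reached in 1 list, dCas9 with Cr10 replicate 3. Just outside it, chr4:175204198-175205641 and chr4:108640872-108641933 each missed the threshold by 1 bp, with the longest peak in the same library. In 857 broad sites the longest peak was at the threshold or less than 50 bp above it, and in 905 narrower sites it fell short by 50 bp or less. Peaks of 1000 bp or more were also found in 36 regions that lacked a peak in at least 1 list, so 99.2% of the 4610 regions with such a peak had a peak in every list. Of those 36, 20 had a peak in 14 lists and the lowest count was 10.

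Many of these regions were one wide peak in some libraries and a row of shorter peaks in others. At least 1 list divided the region into separate peaks in 3457 broad sites (75.6%), compared with 4160 narrower sites (12.5%), and 648 broad sites (14.2%) held 3 or more peaks in a list. Over all 68610 combinations of a broad site and a list, 31.6% were one peak of 1000 bp or more and 38.7% one shorter peak. Several peaks all under 1000 bp made up 27.6%, and several peaks with one of 1000 bp or more 2.16%. Where a site was divided into peaks under 1000 bp, the stretch from the first peak's start to the last peak's end was still 1000 bp or more in 72.1% of 18935 cases. Gaps between neighbouring peaks of one site had a median of 102 bp, with quartiles of 54 and 175 bp. Division was least common among the sites broad in all 15 lists, of which 23.6% were divided in any list, against 72.05% of those broad in 1 list. The grouping counts lists by the width of a single peak, and division shortens single peaks. This contrast is therefore partly set by the grouping and carries no test.

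The strongest summit nevertheless kept its place at most broad sites. Over the 15 lists the positions of the strongest summit spanned a median of 56 bp, against 54 bp at narrower sites, and stayed within 100 bp at 3349 broad sites (73.2%) and 86.1% of narrower sites. At 349 broad sites (7.63%) the strongest summits of different lists lay over 500 bp apart, compared with 0.557% of narrower sites. When a region was cut into 3 equal parts, the median summit fell in the middle part at 53.7% of broad sites and 79.6% of narrower sites. A wider region has more room for summits to lie far apart, and no test was made of either difference.

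Width was tied to height. Sites were put into 10 classes of near-equal size by mean summit pileup over the 15 libraries. In the lowest class 0.637% of the regions with a peak in every list were broad (24 sites), and in the highest, from 161.6 fragments upward, 40.5% (1538 of 3797). The median over broad sites was 142 fragments (10th percentile 81.6, 90th percentile 198) and that over narrower sites 70.1. Height did not settle width, since 3758 narrower sites (11.3%) stood at or above the broad sites' median. By fold over local background the gap was smaller, with median mean folds of 10.7 and 8.21. The median local background was 12.2 fragments at broad sites and 7.66 at narrower ones.

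**Figure D2:**
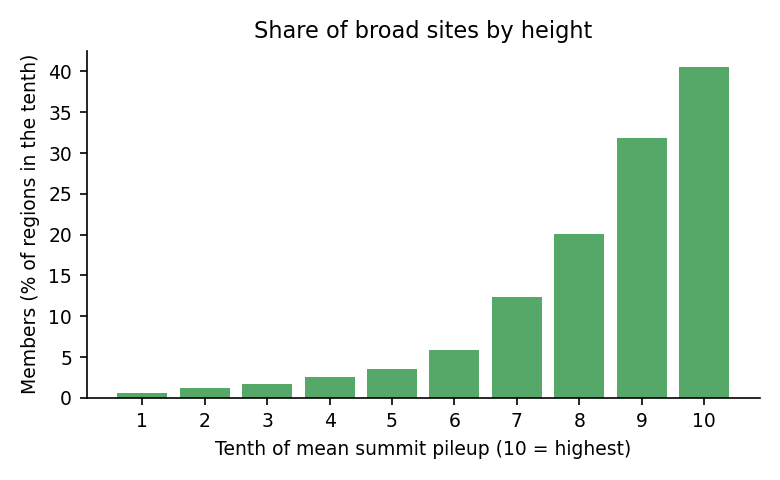
Share of broad sites (y axis, percent) among regions with a peak in every list, in 10 classes of mean summit pileup from the lowest to the highest (x axis). The bars climb at every step, from 0.637% to 40.5%.

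The libraries differed widely in how many broad sites they showed as broad. With dCas9-KRAB and no gRNA, 1002, 3075 and 470 of the 4574 sites reached 1000 bp in replicates 1, 2 and 3. With dCas9 and Cr4 the counts were 1392, 1344 and 2274, and with dCas9-KRAB and Cr4 they were 1279, 630 and 2994. With dCas9 and Cr10 they were 305, 1774 and 3375, and with dCas9-KRAB and Cr10 they were 856, 1361 and 1015. The lowest and the highest counts thus came from the same group, and all 5 groups overlapped. The group means ± SD (n = 3) were 1516 ± 1376, 1670 ± 524, 1634 ± 1221, 1818 ± 1535 and 1077 ± 258 in that order, so the differences between means were smaller than the spread within most groups.

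These counts broadly moved with a stand-in for sequencing depth, which the lists do not give, though not in every pair of libraries. The quietest background, taken as the 1st percentile of the local background over the peaks of a list, was 2.24 fragments in dCas9 Cr10 replicate 1, the library with 305 broad sites at 1000 bp, and 5.60 in dCas9 Cr10 replicate 3, the library with 3375. The median width of the broad sites in a list ranged from 641 to 1084 bp and their median summit pileup from 90 to 201 fragments, both lowest and highest in the same pair of libraries. Broad sites divided into several peaks numbered 756 in dCas9 Cr10 replicate 3, the fewest, and 1723 in dCas9-KRAB Cr4 replicate 2, the most. As an exception, dCas9-KRAB Cr10 replicate 2 had a quietest background of 2.81 fragments and 1361 sites at 1000 bp. Replicate 1 of that group had 3.12 fragments and only 856 sites. The part of depth in the widths was not tested.

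The smallest set lay almost wholly within the largest, that of dCas9 Cr10 replicate 3, which held 73.8% of all broad sites. Of the 305 sites at 1000 bp in dCas9 Cr10 replicate 1, 300 (98.4%) were also at 1000 bp in replicate 3 of that group, where they made up 8.89% of the total. Of the 3075 in dCas9-KRAB no gRNA replicate 2, 79.4% were also at 1000 bp there, close to that 73.8%. Among the 1066 sites broad in a single list, that list was dCas9 Cr10 replicate 3 in 415, dCas9-KRAB no gRNA replicate 2 in 253, dCas9-KRAB Cr4 replicate 3 in 209 and dCas9 Cr4 replicate 3 in 85. These are the 4 libraries of highest quietest background, and without them the rule gave 2929 sites. In every library the broad sites were taller than the narrower ones, by 0.903 to 1.12 in log2 of the median summit pileup. The 4 libraries of highest quietest background had the smallest of these differences, 0.903 to 0.913.

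**Figure D3:**
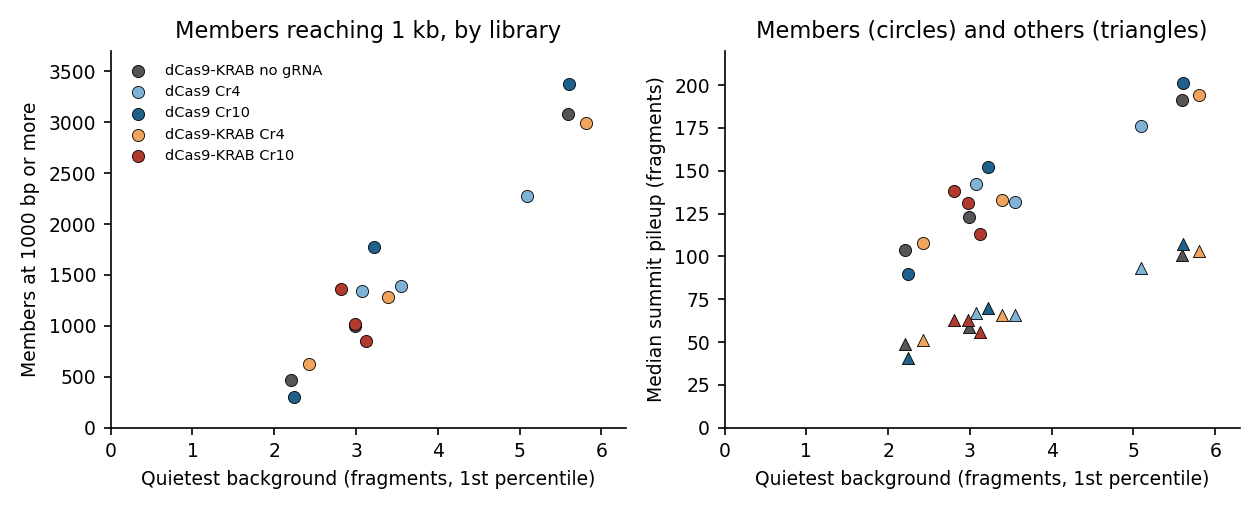
Each symbol is 1 library, coloured by group, against its quietest background in fragments (x axis). Left, the number of broad sites with a peak of 1000 bp or more, from 305 to 3375. Right, the median summit pileup in fragments of broad sites (circles) and narrower sites (triangles). Broad sites lie above narrower ones in each library, and the colours do not separate.

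The site of MIR17HG, the microRNA host gene whose promoter is shown above, at chr13:91999464-92001707, was among the 10 longest. It was at 1000 bp or more in all 15 lists, yet in 2 forms. A single peak of 1981 to 2230 bp appeared in 8 lists, among them 2197 and 2223 bp in dCas9-KRAB no gRNA replicates 1 and 2. The other 7 lists held 2 peaks, the longer of 1065 to 1178 bp, among them 1085 bp in dCas9-KRAB no gRNA replicate 3. Both forms occurred in every group. The strongest summit changed between places up to 1427 bp apart, and the pileup was 251 ± 34.8 fragments.

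The tallest site was also among the longest. At chr22:21995624-21997763, over SDF2L1, which encodes a chaperone cofactor of the endoplasmic reticulum, the summit pileup was 336, 370 and 291 fragments without a gRNA, 347, 346 and 358 with dCas9 and Cr4, and 344, 317 and 370 with dCas9-KRAB and Cr4. It was 276, 353 and 371 with dCas9 and Cr10 and 336, 326 and 329 with dCas9-KRAB and Cr10, a mean of 338 ± 27.6 over 15 libraries. No group stood apart from the others. The highest pileup of a list ranged only from 310 to 375 fragments, while the median at narrower sites ranged from 41 to 107. Values near that top leave less room for a difference between groups, and the reason was not tested. Its longest peak, 2130 bp, belonged to dCas9 Cr10 replicate 3, and in replicate 1 of the same group the longest of 3 peaks had 606 bp.

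Others of the 10 longest sites lay over GNB1L and RTL10 (2130 bp), PHF10, a subunit of a SWI/SNF chromatin remodeler (2093 bp), CTCFL, a paralogue of the insulator protein CTCF (2084 bp), PPT2, a thioesterase (2050 bp), PHF13, a PHD finger protein (2030 bp), and MFSD2B, a sphingosine-1-phosphate transporter of blood cells (2005 bp). Another of the 10, chr22:22005247-22007350 (2092 bp), was given no gene name. The MFSD2B site reached 1000 bp in 2 lists only, dCas9-KRAB no gRNA replicate 2 (2005 bp) and dCas9 Cr10 replicate 3 (1938 bp), and had 470 to 904 bp in the others. By contrast, the PHF13 site was longest in a library of moderate quietest background (3.12 fragments), dCas9-KRAB Cr10 replicate 1, at 2030 bp, with 1884 and 1904 bp in dCas9-KRAB no gRNA replicates 1 and 2 and 777 to 1033 bp elsewhere. Summits of the PHF10 and CTCFL sites moved by up to 1335 and 1141 bp between lists.

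Among sites broad in every list, SETD5, a SET domain protein gene, held the widest minimum. Its site at chr3:9437832-9439621 was one peak in each list, between 1644 and 1776 bp, with a pileup of 111 to 257 fragments (median 166). At PHF19, which encodes a Polycomb-associated protein, the site at chr9:123638170-123639986 ranged from 1462 to 1817 bp as one peak in each list. TRMT2A, a tRNA methyltransferase gene on chromosome 22, had 1424 to 1821 bp, and KLHL22, a ubiquitin ligase adaptor gene on the same chromosome, 1343 to 1804 bp. These were picked from the 123 after their values were seen.

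Of the 10 tallest broad sites, 8 lay on chromosome 22, 1 on chromosome 9 and 1 on chromosome 4. Beside SDF2L1 and GNB1L, sites of this set on chromosome 22 lay over SNAP29, a membrane fusion protein gene (336 ± 28.8 fragments), DGCR2 (335 ± 29.5), YPEL1 (324 ± 32.2), KLHL22 (312 ± 34.5) and CRKL (303 ± 27.9), an adaptor that the BCR-ABL1 kinase phosphorylates. The site on chromosome 9 lay over NUP214, a nuclear pore gene (335 ± 27.3), and that on chromosome 4 over the zinc finger gene ZNF595 (302 ± 32.8). As background, K562 carries many copies of the BCR-ABL1 fusion, which joins parts of 22q11 and 9q34, together with neighbouring sequence.

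A window chosen after these values were seen, chromosome 22 from 15 to 25 Mb, held 65 broad sites among 380 regions with a peak in every list (17.1%), against 11.996% elsewhere. It held 12 of the 123 sites broad in all 15 lists. The broad sites' median pileup was 249 fragments there and 142 elsewhere. Narrower sites in the window were tall too, with medians of 113 against 69.9, and their median local background was 20.05 against 7.63 fragments. The share of broad sites was not particular to the window. In 5 Mb windows of high local background on other chromosomes it ran from 6.41% (chromosome 8, 145 to 150 Mb) to 19.2% (chromosome 21, 45 to 50 Mb). Copy number was not measured, and its part in the values of the chromosome 22 window was not tested.

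Broad sites occurred on all 22 autosomes. Their share of the regions with a peak in every list lay between 9.33% on chromosome 20 and 15.4% on chromosome 21, and chromosome 1 held the most, 583. Chromosome 14 had 109 broad sites and none of the 123 broad in all lists. The nearest other broad site was a median of 94.0 kb away, and 2371 (51.8%) had one within 100 kb. Runs of at least 3 broad sites with gaps of at most 50 kb numbered 140 and held 519 of them. The largest run, chr6:31587672-31803211 in the class III part of the major histocompatibility complex, packed 10 broad sites among 21 regions into 216 kb, and the next, chr19:18263157-18452384, held 9 of 20. The nearest region of any width with a peak in every list was a median of 14.4 kb from a broad site and 10.1 kb from a narrower one.

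Windows reaching 2 kb to either side of the recalled starts of 52 genes in 4 lists were looked up next, and the region with the longest peak in each window is described. Among 14 housekeeping genes all had a region with a peak in every list, and 6 held a broad site. At ACTB, the cytoplasmic actin gene, the longest peak was 1298 bp and 7 lists reached 1000 bp. At HSPA8 it was 1301 bp (5 lists), at ENO1 1209 bp (9 lists), at PPIA, cyclophilin A, 1149 bp (1 list), at HSP90AB1 1146 bp (3 lists) and at the nucleolin gene NCL 1066 bp (5 lists). The 8 that were narrower ran from TUBA1B at 532 bp to EEF1A1 at 912 bp. RPL13A ranked at a mean percentile of 97.5 by fold and RPLP0 at 97.3, with 162 ± 35.9 and 182 ± 35.8 fragments, so these ribosomal promoters were strong and narrow. The ENO1 site, with 175 ± 32.4 fragments, ranked at 72.6.

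Of 12 immediate early and growth control genes, all with a region in every list, 3 held a broad site. EGR1 reached 1131 bp (8 lists), JUND 1081 bp (3 lists) and MCL1, an anti-apoptotic gene, 1146 bp (1 list). PIM1, a kinase gene, was taller than these 3, at 227 ± 43.4 fragments, and its longest peak stopped at 973 bp.

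Blood and erythroid genes gave 2 of 18. ETV6, a hematopoietic repressor gene, reached 1408 bp and 1000 bp in 7 lists with a pileup of only 54.5 ± 15.5 fragments, and 8 lists divided it. EPOR reached 1021 bp in 1 list. The transferrin receptor gene TFRC and the embryonic globin gene HBZ stopped at 979 bp each. TAL1, an erythroid master regulator, had 764 bp, KLF1, which activates the adult globin program, 841 bp, and the adult alpha-globin genes HBA1 and HBA2 595 and 610 bp. GATA2 and BCL11A had no region with a peak in every list in the window.

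Developmental genes of other lineages gave 0 of 8. Only SOX2 and FOXA2 had a region in every list, with longest peaks of 350 and 445 bp. A RefSeq promoter stretch was found for 39 of the 52 genes. Its CG count had a median of 27 (10 to 40) in the 9 genes with a broad site, 24 (4 to 39) in the 25 with a narrower one and 22 in the 5 without a region in every list, so the ranges of the first 2 overlapped.

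**Figure D4:**
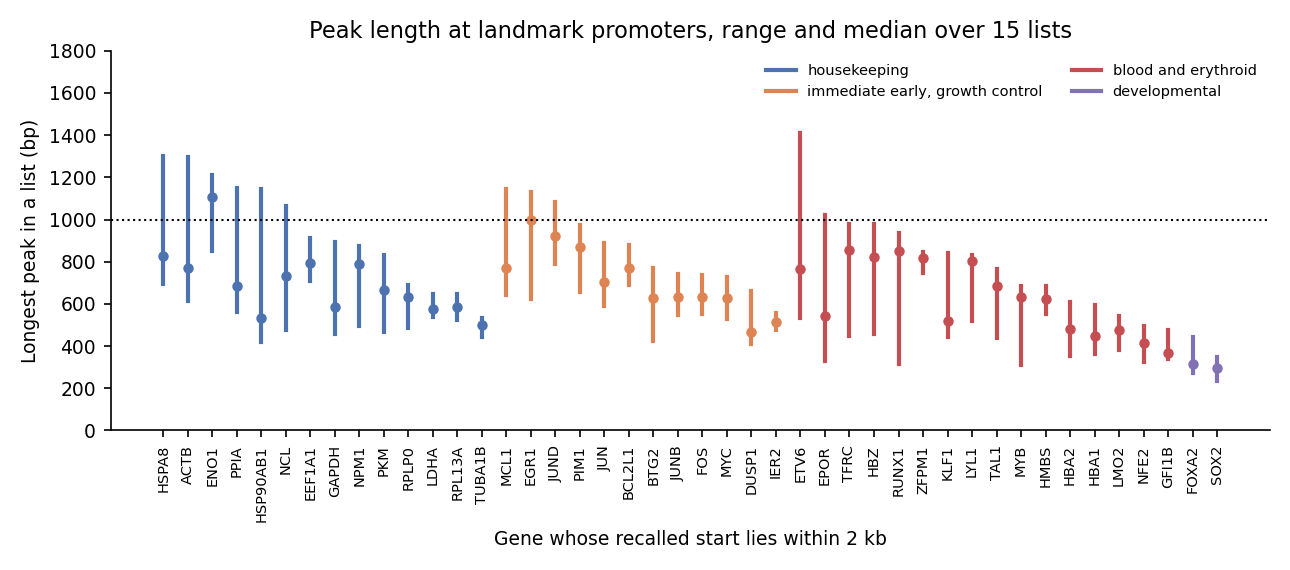
For each gene with a region in every list (x axis, by list and longest peak), the line runs from the shortest to the longest of the per-list longest peaks in bp (y axis) and the dot is the median over 15 lists. The dotted line marks 1000 bp. Lines cross it at 11 genes, and the ENO1 dot lies above it.

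At the gRNA target the sites were not broad. The 11 regions of the beta-globin window with a peak in every list had a longest peak of 692 bp, and 0 of them were broad. The broad site nearest to HS2, chr11:4115543-4116571, lay 1185 kb away and reached 1024 bp in 1 list.

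The remaining question was whether dCas9 or dCas9-KRAB with either gRNA altered the height of the broad sites. None of them passed the test in any comparison. Summit pileups were compared as log2(pileup + 1), centred by the median of the library, with limma over all 37968 regions with a peak in every list, and adjusted by Benjamini and Hochberg over all of them. At an adjusted p under 0.05, 0 of 4574 broad sites were called in each of 8 comparisons, where the share called over all regions was 0% as well. A library's own shift in log2 height is removed by the centring, so a change common to all regions would not be seen.

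Unadjusted p-values under 0.05 were less frequent among the broad sites than over all regions in each comparison, by share and without a test. Against no gRNA, dCas9-KRAB with Cr4 gave 11 broad sites (0.24%, with 0.719% over all regions), dCas9-KRAB with Cr10 gave 6 (0.131%, with 0.877%), dCas9 with Cr4 gave 6 (0.131%, with 0.321%) and dCas9 with Cr10 gave 12 (0.262%, with 1.09%). Between dCas9-KRAB and dCas9 there were 9 for Cr4 (0.197%, with 0.216%) and 25 for Cr10 (0.547%, with 1.3%). Cr4 against Cr10 under dCas9-KRAB gave 10 (0.219%, with 0.743%). Pooling the gRNAs, the 6 libraries of dCas9-KRAB with either gRNA against the other 9 gave 10 (0.219%, with 0.798%). Those 9 mixed dCas9-KRAB without a gRNA and plain dCas9 with a gRNA, so this comparison isolates neither KRAB nor the gRNA. Comparisons that share a control group are not independent of each other. Without any difference, a proportion near 0.05 would be expected at this threshold, which is higher than every percentage given here. The shares over all regions ran from 0.216% to 1.3%, so the test was conservative here. The median within-group SD of the broad sites, 0.172, was above their median SD over all 15 libraries, 0.157. The lack of calls therefore does not show that heights were unchanged.

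The sizes were small. Relative to dCas9-KRAB without a gRNA, the median log2 difference over the broad sites was -0.02 for dCas9-KRAB with Cr4 and 0.03 with Cr10. Relative to the same group, which differs from plain dCas9 in KRAB too, it was -0.02 for dCas9 with Cr4 and 0.02 with Cr10. It was -0.05 for Cr4 against Cr10 under dCas9-KRAB. The medians over all regions ranged no further from 0 than -0.0086. Over all 8 comparisons the single broad sites lay between -0.55 and 0.51, with a median standard error of 0.14, or 0.093 in the comparison of 6 with 9 libraries. The median of the broad sites varied between libraries of one group by a pooled SD of 0.085, so the shifts of the medians were smaller than that spread. Each of the 8 medians took the other sign under at least 1 alternative, 7 of them when sites were ranked by fold, so no direction is read from them.

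**Figure D5:**
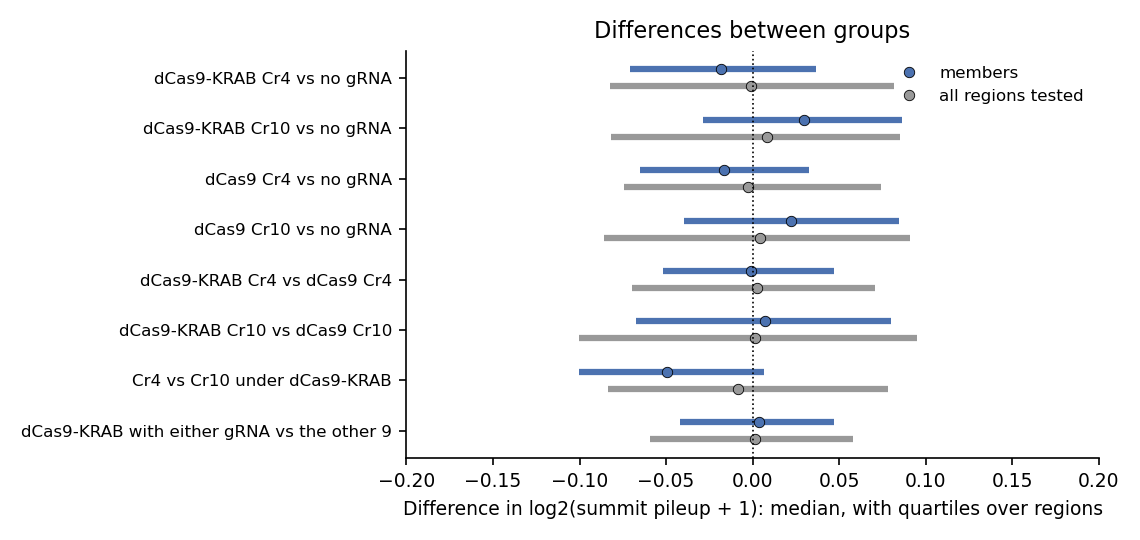
Difference in log2(summit pileup + 1) for the 8 comparisons (y axis), as the median (dot) and the quartiles (bar) over regions, for the 4574 broad sites (blue, labelled members) and all 37968 regions tested (grey). Every blue median lies between -0.05 and 0.03.

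Of the 10 broad sites with an unadjusted p under 0.05 in the comparison of 6 with 9 libraries, 1 was higher and 9 were lower with dCas9-KRAB and a gRNA. The 2 of lowest unadjusted p in each direction among all broad sites are given, and none of them passed the test. Lowest in p was chr9:86432048-86433222, with 41, 65 and 108 fragments as the lowest, median and highest of the 6 gRNA libraries of dCas9-KRAB and 53, 74 and 127 in the other 9 (log2 difference -0.29, standard error 0.12). At chr13:21476120-21477458 the values were 49, 70.5 and 127 against 50, 92 and 142 (-0.20, standard error 0.089). In the other direction, chr1:155231581-155232603 had 140, 171.5 and 220 against 62, 166 and 213 (0.30, standard error 0.14). The site chr11:118972021-118973110 had 80, 83 and 113 against 43, 79 and 134 (0.20, standard error 0.097). Its unadjusted limma p was 0.054, so it was not among those 10. The limma adjusted p was 1.00 for all 4, and the 2 groups of libraries overlapped at each.

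The broad sites were measured with less scatter than the narrower ones. The median SD of the centred log2 pileup over 15 libraries was 0.157 at broad sites and 0.197 at narrower ones. Within each of the 10 height classes the gap was smaller, with medians of 0.215 and 0.249 in the lowest class and 0.162 and 0.164 in the tallest.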

How the data were processed

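Accessible chromatin of K562 cells was measured in 15 libraries, each deposited as 1 narrowPeak list on hg19. Per the submitters' processing notes, CASAVA 1.3, BWA and bedtools were used. Peak names begin with macs, and caller settings and total depth are not given in those sources. The deposited fold column is a ratio of summit signal to local background, and the authors gave p-values and q-values as −log10. Scores, deposited as whole numbers, were not used. Positions were used as deposited, per the labels on hg19.

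Peaks overlapping by at least 1 bp were merged. The summit pileup k was solved from fold = (k + 1)/(λ + 1) and the Poisson p-value given the background λ. A whole k met both within 0.01 in −log10 p for 100% of peaks. A region took its strongest peak in each list. Ranks by fold were percentiles within a list, 100 being the strongest. Depth being unknown, no counting intervals are given. The measure tested was log2(k + 1), centred by library median over 37968 regions, with limma 3.58.1 (R 4.3.3, mean-variance trend, 5 groups in one fit, two-sided, Benjamini-Hochberg), and the script was tested on simulated data. Tables used Python 3.11.15, numpy 2.4.6, pandas 2.3.3, scipy 1.17.1 and matplotlib 3.10.9.

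The rule named the 10 longest and 10 tallest broad sites, of which 9 each are reported here, those in gene windows, 2 on each side of the width threshold, and the 2 of lowest p in each direction where none passed. Among the longest, the site left out is the longest of all, with 2395 bp in dCas9-KRAB Cr4 replicate 3. The broad sites and the gene lists were chosen with earlier results of these data known, and 19 gene names were added after values were seen. Replicate numbers were not taken as pairing. Alternatives covered the width threshold, the number of lists, merging, list length, centring, limma settings, rank or fold as the measure, a pileup filter, a block for the replicate number, and each library left out in turn. Sequences come from RefSeq (GRCh38.p14), and no coordinates of that build are used.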

Additional observations from a re-analysis of the deposited data

How the results depend on the processing

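The number of broad sites depended on the rule: 8774 at a width of 800 bp, 1931 at 1200 bp, 366 at 1500 bp, 1153 when 8 lists had to reach 1000 bp and 123 when all 15 had to. Without the 4 libraries of highest quietest background, an alternative chosen after seeing the data, it was 2929. Leaving out each library in turn gave 4159 to 4582. Gene windows with a broad site numbered 24 at 800 bp and 4 at 1200 bp, against 11. In all 26 settings of each comparison limma called 0 broad sites, with 1 to 115 at an unadjusted p under 0.05. Leaving out each library gave median log2 differences of -0.08 to 0.10, and all except dCas9-KRAB Cr4 replicate 1 and dCas9-KRAB Cr10 replicates 1 and 3 turned the sign of at least 1 of the 8 medians. By rank the medians were -0.39 to 0.56 percentile points, with the other sign in 7 of 8, and with log2 background as covariate that of Cr4 against Cr10 under dCas9-KRAB went from -0.05 to 0.00083. Same-numbered libraries did not deviate together in every pair (lowest correlations -0.21, -0.28 and 0.0008 for numbers 1, 2 and 3), although the medians, 0.43, 0.12 and 0.15, were above that between different numbers, -0.13, and 10 of 15 libraries were closest to one of their own number. With the replicate block 0 broad sites were called, and 12 to 67 had an unadjusted p under 0.05. None of the 4 sites given for the comparison of 6 with 9 libraries changed direction. Library depth is unknown, and its part in the widths was not tested.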
